A study of Rattus norvegicus with 399 samples.

Results

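Transcript levels in the left lobe of the liver were compared between female Sprague-Dawley rats given 100 ppm of 1,2-dichlorobenzene (1,2-DCB), a benzene ring with chlorine atoms on neighbouring carbons, and female Sprague-Dawley rats given 0 ppm. The libraries were chosen by their labelled compound, tissue and concentration, after leaving out libraries that the submitters did not use for reasons of quality, of which none belonged to these groups. This gave 15 of the 399 libraries of the series: 5 exposed livers, from rats F401 to F405, and 10 control livers, from rats F1 to F10. Every rat was 9 weeks old, gave 1 liver library and had its tissues taken on study day 5. The series also holds heart, kidney, lung and ovary of the same rats, other concentrations of 1,2-DCB and the related compound 1,4-dichlorobenzene (1,4-DCB). The labels name neither the route of exposure nor a batch.

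The liver oxidises chlorinated benzenes with cytochrome P450 enzymes to reactive epoxides. Epoxide hydrolases open these to diols and glutathione transferases join them to glutathione, after which exporters of the ABC family move the conjugates into blood or bile. Many of these genes are induced through the transcription factor NRF2, which responds to electrophiles, or through the nuclear receptors CAR and PXR, which respond to foreign chemicals. The assay was TempO-Seq, in which pairs of short detector probes are ligated on a chosen stretch of a transcript and counted, here for the Rat S1500+ panel. Levels are in CPM, counts scaled to the same library total and corrected for composition, and each probe has its own efficiency, so levels are not compared between genes. Changes are log2 fold changes ± SE of edgeR's quasi-likelihood fit, and “called” means an adjusted p under 0.05 (Benjamini-Hochberg, over all 2019 probes tested).

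The exposed libraries held 30.9 to 53.1 M counts after the correction for attenuation and the control libraries 32.03 to 66.9 M counts, so that 1 count was worth between 0.016 and 0.0335 CPM. Control F8 had the lowest median correlation with the other libraries compared (0.971, the next lowest being F401 at 0.976). It also had the largest share of its counts in 1 probe (32.1%, Tf). The hepatocyte markers Alb and Ttr were among the most abundant transcripts of all 15 libraries, with Alb between 70427 and 128909 CPM. Of 6 markers of heart, kidney and ovary, 5 (Actc1, Aqp2, Cyp19a1, Lhcgr and Myh6) were at 0 in all 15 libraries, and Myl2 reached 0.328 CPM at most. No marker of bile duct, stellate, endothelial, Kupffer, neutrophil, lymphoid or red cells was called. In these whole-tissue libraries fewer cells of a type and less RNA per cell cannot be told apart.

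At 100 ppm, 43 of 2019 probes (2.13%) were called, each for a different gene. Of these, 30 rose (1.49% of the probes tested) and 13 fell (0.644%), while the median change over all probes was -0.0097. The rises were over 2-fold for 14 genes and the falls for 3. By adjusted p the first genes were Abcc3, an exporter of conjugates, the glucose 6-phosphate transporter Slc37a4, the urea cycle enzyme Otc and Pax8. Pax8, a transcription factor, rested on few counts. The transferases Gstm2, Gsta2 and Gstp1 were also called, and all of these genes were higher in exposed liver. Several genes of mitosis also rose from few counts, and the complement genes C3 and C4bpb and the chaperone Hsp90aa1 fell.

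Most changes were small or rested on few counts. Of the 43 genes, 18 reached a mean of 20 CPM in either group and 10 stayed below 1 CPM in both. In 11 of the 43, every exposed library lay beyond every control, an arrangement found for 14 of 2019 probes (0.693%), and 18 others had 4 of 5 exposed libraries beyond the controls. Abcc3, Slc37a4, Otc and Gstm2 were called under every alternative that tested them, including the omission of each rat in turn. Without F403 only 12 probes were called, and without F404 only 16.

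Abcc3, also known as MRP3, carries glucuronide and glutathione conjugates from hepatocytes into blood and had the smallest adjusted p. In F401 to F405 it stood at 4.43, 4.49, 6.78, 4.22 and 4.32 CPM, against 1.64 to 3.03 CPM (median 2.02) in control livers. The groups did not overlap, and the change was 1.18 ± 0.18 (adjusted p = 0.000198, edgeR). Rat F403 was the highest, and without it Abcc3 was still called (adjusted p = 0.00369).

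3 glutathione transferases rose with it. Gsta2, of the alpha class, was at 136.4, 123.6, 154.1, 131.3 and 104.5 CPM in F401 to F405 and at 52.8 to 113.5 CPM (median 86.8) in controls, a change of 0.59 ± 0.13 (adjusted p = 0.0153, edgeR). Gstp1, of the pi class, which is scarce in normal adult rat hepatocytes, was at 7.64, 7.04, 5.36, 8.33 and 6.97 CPM against 2.14 to 4.19 CPM (median 3.08), a change of 1.22 ± 0.29 (adjusted p = 0.0191). For Gstp1 no exposed liver overlapped a control, and for Gsta2 only F405 did. Gstm2, of the mu class, was at 42.1, 55.99, 41.5, 52.2 and 41.7 CPM against 16.01 to 45.6 CPM (median 26.1), a change of 0.77 ± 0.16 (adjusted p = 0.00959). A single control liver reached 45.6 CPM of Gstm2, above 3 of the 5 exposed livers. The sources used here do not say whether the probes separate close members of these families. The call of Gsta2 was lost without F403 (adjusted p = 0.068) and that of Gstp1 without F404 (adjusted p = 0.0647).

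3 oxidising or hydrolysing enzymes also rose, with more spread between animals. Ephx1, the microsomal epoxide hydrolase, was at 49.5, 87.1, 106.6, 107.7 and 91.7 CPM against 33.8 to 65.5 CPM (median 51.5), a change of 0.76 ± 0.19 (adjusted p = 0.0263, edgeR). F401 lay among the controls and the other 4 exposed livers lay above all of them. Aldh1a1, a cytosolic aldehyde dehydrogenase, was at 1294, 1815, 1942, 1624 and 1497 CPM against 579.99 to 1457 CPM (median 805.9), a change of 0.91 ± 0.20 (adjusted p = 0.0153), again with F401 alone inside the control range. Cyp2b2, the phenobarbital-inducible P450 of rat liver, was at 5.79, 2.65, 26.7, 19.2 and 14.5 CPM against 0.744 to 6.86 CPM (median 2.75), a change of 2.23 ± 0.61 (adjusted p = 0.0455). F401 and F402 fell within the control range of Cyp2b2 and F403 had the highest value, so this mean change rests on 3 animals. Its close relative Cyp2b1, whose reads may not be separated from it, had a change of 1.77 (adjusted p = 0.113). The call of Aldh1a1 was lost without F403 (adjusted p = 0.056), that of Ephx1 without F402, F403, F404, F405 or control F8 (up to 0.136) and that of Cyp2b2 without F403, F404, F405 or any of 8 controls (up to 0.168).

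**Figure D1:**
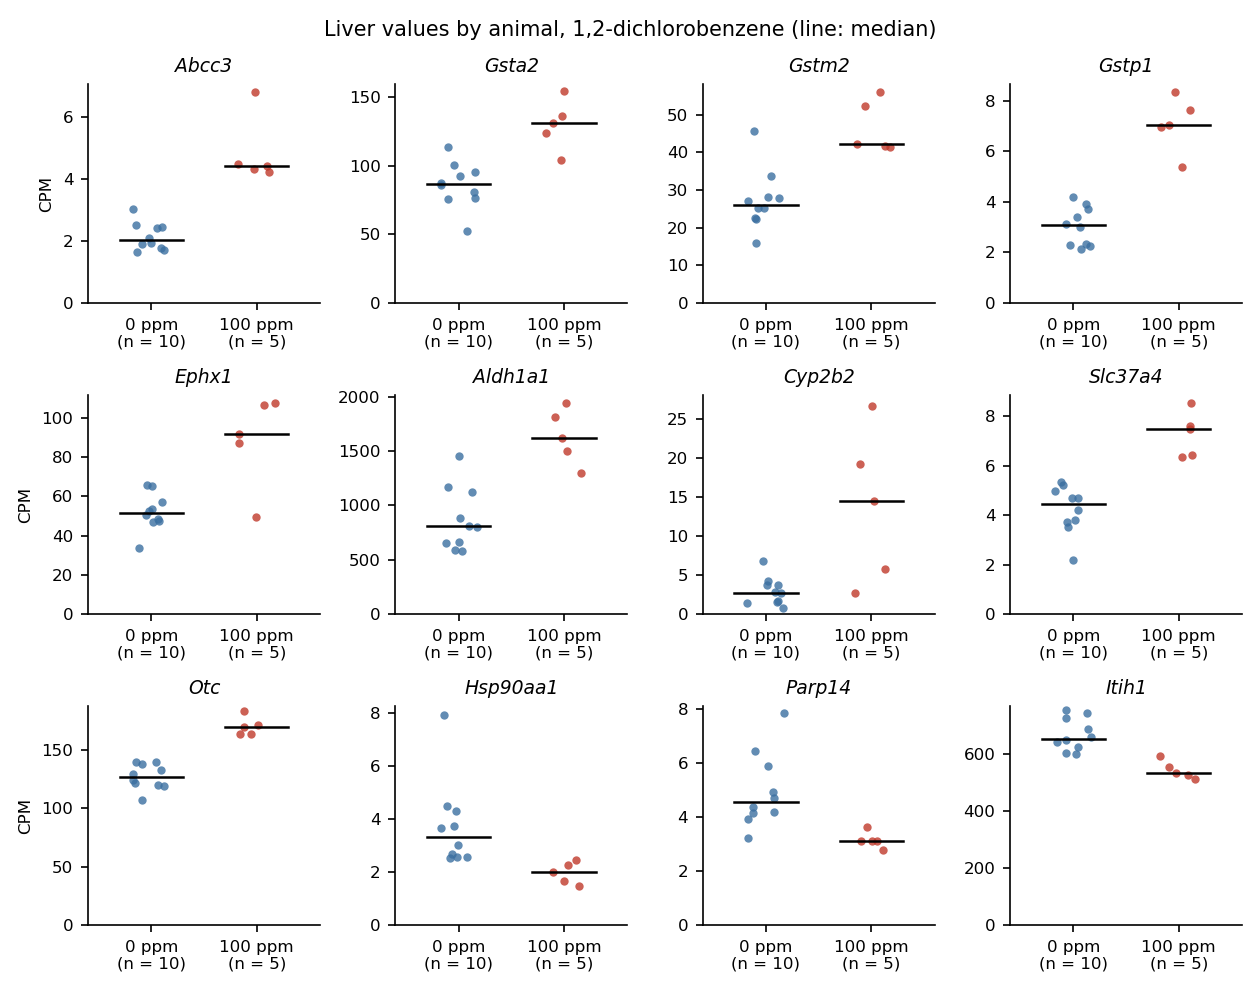
Level of 12 called genes in each liver (vertical axis, CPM from 0), with 10 control animals in blue and 5 exposed animals in red, and the median of each group as a line. The 5 exposed values of Abcc3, Gstp1, Slc37a4 and Otc lie above every control, and those of Hsp90aa1 and Itih1 below every control.

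Promoters of 2 of these genes are shown because both carry, close to the start of transcription, the core TGACNNNGC of the antioxidant response element that NRF2 binds. The sequences are the 250 bases before the RefSeq start in build GRCr8, read 5′ to 3′ on the strand of the gene, with the match in capitals. The Gstp1 window lies at chr1:210769706-210769955 on the minus strand, and its match is centred 57 bases before the start. For Ephx1 the window before 1 of its 2 annotated starts is shown, at chr13:95263118-95263367 on the minus strand, where the match lies on the opposite strand, centred 53 bases before the start.
Gstp1: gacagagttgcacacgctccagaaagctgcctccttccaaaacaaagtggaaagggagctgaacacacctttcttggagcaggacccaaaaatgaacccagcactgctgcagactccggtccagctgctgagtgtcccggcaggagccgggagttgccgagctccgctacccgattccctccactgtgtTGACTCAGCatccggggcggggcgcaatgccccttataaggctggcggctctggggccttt
Ephx1: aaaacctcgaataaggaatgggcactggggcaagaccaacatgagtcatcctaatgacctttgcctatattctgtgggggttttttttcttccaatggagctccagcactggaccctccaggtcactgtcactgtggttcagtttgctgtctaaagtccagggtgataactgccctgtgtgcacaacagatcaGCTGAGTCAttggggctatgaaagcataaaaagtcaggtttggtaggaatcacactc
Windows of 300 bases, from 250 before to 50 after each start, were searched on both strands for this core, for the core GCGTG of the AHR element and for the nuclear receptor half-site AGGTCA. Of the 43 genes 39 were in the table, and Abcc3, Hsp90aa1, Aqp7 and Bnip3l were not. TGACNNNGC was found for 8 of 27 genes that rose (29.6%), 2 of 12 that fell (16.7%) and 13.1% of all genes in the table. Besides Gstp1 and Ephx1, the rises that held it, before or after the start, were Gsta2, Birc5, Gas2l3, Lama3, Anln and Ect2. GCGTG was found for 21 of the 27 rises (77.8%) and 2 of the 12 falls, against 32.4% of all genes, and AGGTCA for 5 rises (18.5%) and 2 falls, against 16.9%. Over the genes tested here the shares were 15.5% for TGACNNNGC, 47.7% for GCGTG and 15.2% for AGGTCA. Only 1556 of the 1995 genes tested were matched, under 80%, so a check of the called genes against the panel is void, and no difference is read from these shares. A match is a stretch of letters and shows no binding.

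The gene lists place these rises among their relatives. 4 of 26 tested NRF2 targets rose (Abcc3, Gsta2, Gstp1 and Ephx1) and none fell, with a median change of 0.17. Over all 2019 probes 1.49% rose. The lists were chosen with earlier results of these data known, and Abcc3, Gsta2 and Gstp1 each stand on more than 1 of them. The counts per list are therefore a description and no test. The 22 uncalled targets ran from -0.93 (Abcc4) to 0.75 (Gstm3). Among them the aldehyde reductase Akr7a3 (0.58 ± 0.23) and the peroxiredoxin Prdx1 (0.57 ± 0.24) had values near those of Gsta2 and Ephx1. The value of the transferase Gstm3 had an SE of 0.88, larger than the change itself. Nqo1, a quinone reductase, had 0.36, Gclm 0.034, Hmox1 -0.019 and Gclc -0.38. 3 of 18 CAR and PXR targets rose (Abcc3, Aldh1a1 and Cyp2b2), with a median of 0.36. The PXR target probes Cyp3a2 (0.39), Cyp3a23/3a1 (0.29) and Cyp3a1 (-0.062) were not called. Of 16 conjugation enzymes 3 rose, all of them glutathione transferases, and Ugt1a1, a glucuronosyltransferase, was not called (0.35, adjusted p = 0.352). None of 4 AHR targets was called. Of 16 exporters and bile acid genes only Abcc3 rose. Slc10a1, the bile acid uptake carrier, stood at 225.5, 215.7, 219.9, 263.95 and 188.97 CPM against 33.6 to 203.8 CPM (median 161.6) and was not called (0.58 ± 0.20, adjusted p = 0.126, edgeR).

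**Figure D2:**
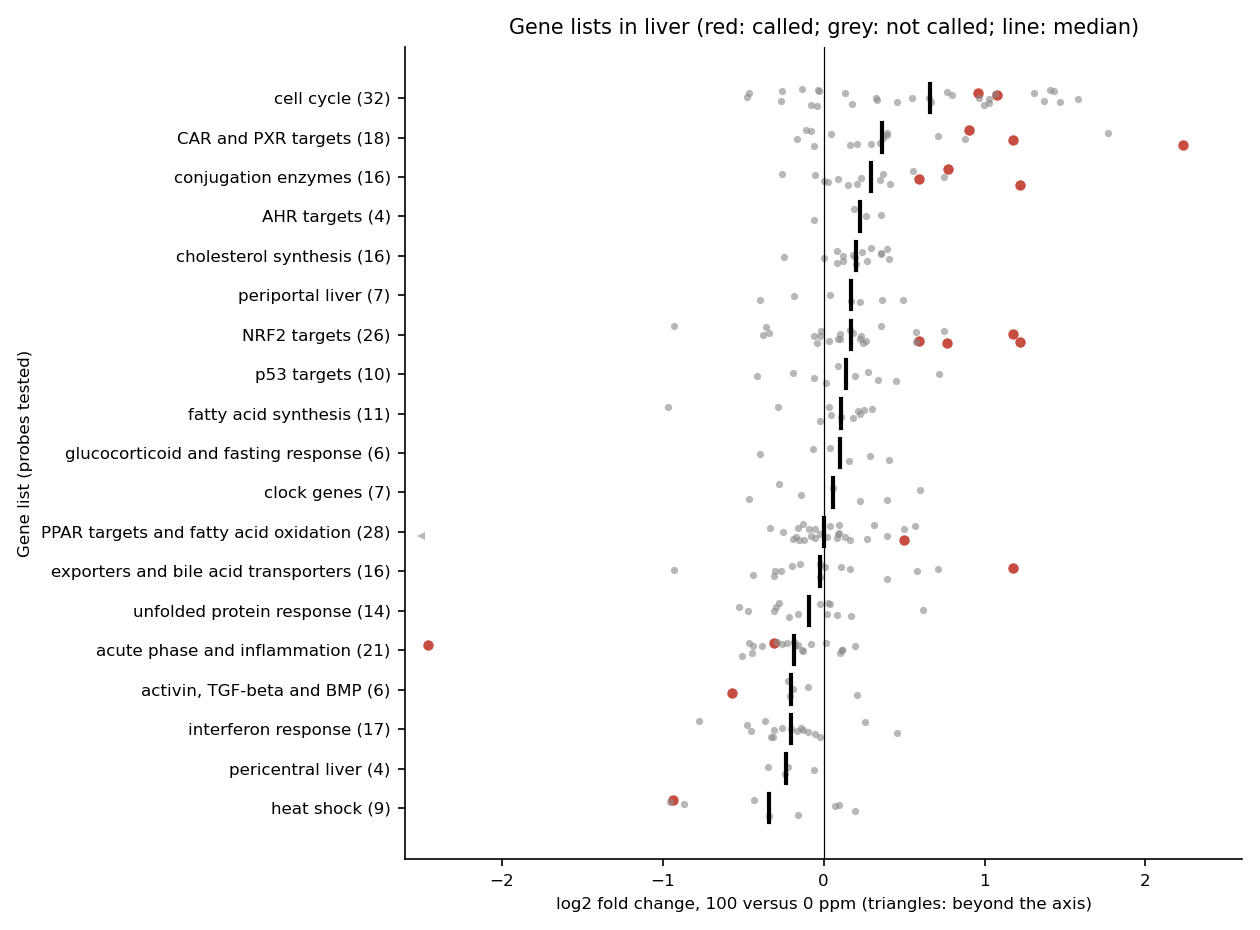
Log2 fold change at 100 against 0 ppm (horizontal axis) for every tested member of 19 gene lists (rows, with the number of probes tested), called members in red, the list's median as a line and arrowheads for values beyond the axis. The cell cycle list has the highest median (0.66, with 2 called members) and the heat shock list the lowest (-0.34, with 1).

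Other rises were of enzymes of mitochondria, the urea cycle and glucose release, put together here after the calls were seen and tested by no list of their own. Otc, the mitochondrial ornithine transcarbamylase of the urea cycle, was at 171.4, 183.2, 163.5, 169.1 and 163.1 CPM in F401 to F405 against 107.2 to 139.5 CPM (median 126.7). Every exposed liver exceeded every control, for a change of 0.42 ± 0.079 (adjusted p = 0.00337, edgeR). Other urea cycle probes were not called, with changes of 0.36 for Arg1 (adjusted p = 0.193, edgeR) and 0.23 for Ass1 (adjusted p = 0.457). Cps1 had a change of -0.19 ± 0.70 (adjusted p = 0.938). Slc37a4, which moves glucose 6-phosphate into the endoplasmic reticulum for the last step of glucose release, was at 6.36, 7.61, 6.43, 8.52 and 7.47 CPM against 2.17 to 5.35 CPM (median 4.44). Its groups did not overlap either, and the change was 0.78 ± 0.14 (adjusted p = 0.00231).

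Also among the calls were genes of respiration and fatty acid breakdown. Ndufv3, a subunit of respiratory complex I, was at 60.7, 61.8, 66.1, 69.4 and 69.6 CPM against 43.9 to 59.5 CPM (median 53.6), a change of 0.34 ± 0.078 (adjusted p = 0.017, edgeR). Nipsnap1, a mitochondrial protein, was at 52.1, 51.3, 45.4, 50.8 and 47.9 CPM against 33.9 to 42.5 CPM (median 40.1), a change of 0.35 ± 0.083 (adjusted p = 0.0191). In both genes all 5 exposed livers lay above all 10 controls. Sdha, the flavoprotein of complex II, was at 70.5, 130.01, 52.2, 78.2 and 86.6 CPM against 33.8 to 78.5 CPM (median 50.5), a change of 0.65 ± 0.15 (adjusted p = 0.0191). Only F402 and F405 exceeded the highest control of Sdha, and without F402 the call was lost (adjusted p = 0.142). Acaa1a, the peroxisomal thiolase of fatty acid oxidation, was at 35.6, 32.5, 42.7, 46.3 and 32.5 CPM against 16.3 to 34.4 CPM (median 25.9), a change of 0.50 ± 0.14 (adjusted p = 0.0398). Echs1, a mitochondrial enoyl-CoA hydratase, and Bnip3l, a receptor for removal of mitochondria, rose by 0.27 ± 0.068 and 0.27 ± 0.077, with 4 of 5 exposed livers above the controls in each. The call of Ndufv3 was lost without F403 or F404. It was also lost in a fit of only the 100 and 0 ppm libraries (adjusted p = 0.0666, edgeR, its highest over the alternatives). Calls were lost without F401 or F404 for Nipsnap1 (up to 0.0647) and without F402, F403 or F404 for Echs1 (up to 0.132). Those of Acaa1a (up to 0.176) and Bnip3l (up to 0.147) were lost without F401, F403, F404 or any of 6 controls and without F401, F402, F403, F404 or any of 7 controls.

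Acaa1a was the only called member of 28 tested PPAR targets and fatty acid oxidation genes, whose median change was 7.54e-05. Aqp7, a glycerol channel, rose from 0 to 5 counts per control library to 2 to 12 counts, and its call was lost without F401, F403, F404 or any of 8 controls. Of 16 cholesterol synthesis genes 14 had a positive change and none was called, with a median of 0.20. Fdft1, squalene synthase, had the smallest p of that list, with a change of 0.41 (adjusted p = 0.31). None of 11 fatty acid synthesis genes was called, and Scd1, the stearoyl-CoA desaturase, had a change of -0.97 with control livers at 5.32 to 88.5 CPM. No periportal gene of 7 and no pericentral gene of 4 was called.

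Further rises belonged to cell division, a group named here after the calls were seen. Spc24, a subunit of the kinetochore complex that holds microtubules, was at 4.71, 2.88, 6.37, 2.56 and 2.39 CPM against 0.979 to 1.96 CPM (median 1.43), a change of 1.44 ± 0.30 (adjusted p = 0.00959, edgeR). All 5 exposed livers exceeded the controls, F403 and F401 by the most. Birc5, or survivin, of the chromosomal passenger complex, was at 1.08, 0.872, 1.48, 0.615 and 1.04 CPM against 0.289 to 0.668 CPM (median 0.465), a change of 1.07 ± 0.26 (adjusted p = 0.0191). Aurka, a mitotic kinase of the spindle poles, was at 1.62, 0.603, 0.87, 0.763 and 0.747 CPM against 0.332 to 0.78 CPM (median 0.455), a change of 0.96 ± 0.25 (adjusted p = 0.0356). F401 stood apart above the other 4, of which only F403 exceeded every control.

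Further genes of division had few counts. Kif18b, a spindle kinesin, was at 1.45, 0.603, 1.92, 0.89 and 0.456 CPM against 0.161 to 0.758 CPM (median 0.393), and Anln, the cytokinesis scaffold anillin, at 1.02, 0.402, 1.03, 0.551 and 0.768 CPM against 0.0947 to 0.413 CPM (median 0.307). Their changes were 1.35 ± 0.33 and 1.36 ± 0.34, again with the highest values in F401 and F403, without either of which both calls were lost (up to 0.152 and 0.111). Gas2l3, which links the cytoskeleton at the end of division, rose by 1.57 ± 0.37, from 1 to 24 counts per control library to 4 to 50, and lost its call without F403 or F405 (up to 0.11). Ect2, which activates RhoA for cytokinesis, and Kntc1, of the kinetochore, had at most 7 and 11 counts in any control and 3 to 27 and 4 to 37 counts in exposed libraries. Ube2t, the ubiquitin-conjugating enzyme of Fanconi anaemia repair, had at most 2 counts in any control, with 5 control libraries at 0, and 0 to 14 counts in exposed libraries. At such counts the fitted changes of 1.99, 1.61 and 3.04 depend on the small constant that the fit adds to each count. The calls were lost for Ect2 without F401, F403, F404 or any of 4 controls, for Kntc1 without F403, F405 or any of 8 controls and for Ube2t without F401, F403, control F1, control F8 or control F9.

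Of 32 tested genes of the cell cycle list only Birc5 and Aurka were called. An unadjusted p under 0.05 was reached by 12 of the 32, and by 286 of all 2019 probes (14.2%, edgeR). The list's median change was 0.66, against -0.0097 over all probes. Cdc20, an activator of the anaphase-promoting complex, lay just outside the threshold with a change of 1.07 ± 0.30 (adjusted p = 0.0522, edgeR). Genes of DNA replication lay on both sides of 0. The 5 tested subunits of the MCM helicase ran from -0.47 (Mcm6) to 1.40 (Mcm5), Rrm1, of ribonucleotide reductase, was at 0.32 and Pcna, the polymerase clamp, at -0.041, while Ccnd1, cyclin D1, had a change of -0.46; none of these was called. Without F403 no gene of the list was called, with Birc5 at an adjusted p of 0.111, and Spc24, which is not on the list, was at 0.0669. Aurka lost its call without F401, F403, F404 or any of 5 controls (up to 0.22). Mad2l1, of the spindle checkpoint, also lay just outside the threshold (0.59 ± 0.17, adjusted p = 0.0532), as did LOC100362453, a probe that was lower (-0.52 ± 0.15, adjusted p = 0.0521). None of 10 p53 targets was called.

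5 rises fell in no such group. Rpl35, a protein of the large ribosomal subunit, was at 8476, 8428, 8020.0, 8350.4 and 8490.3 CPM against 5371 to 7288 CPM (median 6752), with every exposed liver above every control and a change of 0.37 ± 0.087 (adjusted p = 0.0191, edgeR). Lama3, the alpha-3 chain of laminin, was at 0.681, 0.805, 1.19, 1.61 and 1.49 CPM against 0.238 to 0.829 CPM (median 0.591), a change of 1.02 ± 0.24 (adjusted p = 0.0191). Map7, a microtubule-associated protein, and Ano10, of the anoctamin family, rose by 0.36 ± 0.092 and 0.39 ± 0.10, with 3 of 5 exposed livers above the controls in each. Pax8, a transcription factor of thyroid and kidney, had 4 to 28 counts in exposed livers and 0 to 3 in controls, 5 of them at 0, for a fitted change of 3.44 ± 0.66 (adjusted p = 0.00342). Exposed livers held 0.083 to 0.593 CPM of Pax8, whereas kidney of the control rats held 374.96 to 632.2 CPM (median 513.5). The calls of Rpl35 (adjusted p = 0.0556) and Pax8 (adjusted p = 0.0501) were lost without F404. Lama3 lost its call without F403, F404 or F405 (up to 0.127), Map7 without F403, F404 or control F8 (up to 0.17) and Ano10 without F402, F403, F404 or control F8 (up to 0.137).

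Among the 13 falls were plasma proteins made by hepatocytes. Itih1, a heavy chain of the inter-alpha-trypsin inhibitors, was at 525.1, 555.9, 513.3, 534.4 and 591.8 CPM against 599.1 to 754.7 CPM (median 654.2), and every exposed liver lay below every control. Its change was -0.30 ± 0.075 (adjusted p = 0.0244, edgeR). C3, the central complement component, was at 14014, 10708, 11528, 11068 and 11461 CPM against 12278 to 18251 CPM (median 14083), a change of -0.31 ± 0.083 (adjusted p = 0.0363). F401 stood apart, near the control median of C3, and the other 4 lay below all controls. C4bpb, a chain of the C4b-binding protein that restrains complement, was at 79.9, 80.9, 81.3, 76.7 and 88.4 CPM against 85.8 to 165.05 CPM (median 98.4), a change of -0.38 ± 0.11 (adjusted p = 0.0462). The call of Itih1 was lost without F401, F403 or F404 (up to 0.101), that of C3 without F402, F403, F404, F405 or any of 5 controls and that of C4bpb without F401, F402, F403, F404, F405 or any of 5 controls. In a fit of only the 100 and 0 ppm libraries C3 (adjusted p = 0.175) and C4bpb (adjusted p = 0.218) were not called.

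Parp14, Psmb10, Nod1 and Tnf, described together after the calls were seen, have roles in immunity, and only Tnf is on one of the gene lists. Parp14, an ADP-ribosyltransferase induced by interferon, was at 3.12, 3.12, 3.64, 3.12 and 2.76 CPM against 3.22 to 7.83 CPM (median 4.54), a change of -0.65 ± 0.15 (adjusted p = 0.017, edgeR), and was called with each rat left out in turn, though not in a fit of only the 100 and 0 ppm libraries (adjusted p = 0.0808). Psmb10, a catalytic subunit of the immunoproteasome, was at 2.44, 1.31, 1.68, 1.36 and 1.78 CPM against 2.07 to 3.78 CPM (median 2.85), a change of -0.73 ± 0.18 (adjusted p = 0.0191). Nod1, a sensor of bacterial cell walls, was at 1.42, 1.58, 1.602, 1.84 and 1.89 CPM against 1.96 to 3.66 CPM (median 2.38), with no overlap and a change of -0.57 ± 0.16 (adjusted p = 0.0436). Tnf, the inflammatory cytokine, had 0 to 3 counts in exposed libraries, 2 of them at 0, and 2 to 16 counts in controls, for a fitted change of -2.46 ± 0.66 (adjusted p = 0.0372) that rests on these few reads. The calls were lost for Psmb10 without F402, F403 or F404 (up to 0.0898), for Tnf without F401, F402, F403, F404 or control F8 (up to 0.127) and for Nod1 without F401, F402, F403, F404 or any of 5 controls (up to 0.126).

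C3 and Tnf were the called members of 21 tested genes of the acute phase and inflammation list, of which 5 had a positive change and the median was -0.18. The acute phase genes Itih4 (-0.38, adjusted p = 0.123) and Fgg (-0.22, adjusted p = 0.313) were not called. None of 17 interferon response probes was called, although only 2 had a positive change and their median was -0.20. Psmb9, another subunit of the immunoproteasome, came nearest, with a change of -0.45 (adjusted p = 0.113). Lcn2, with the smallest p of the neutrophil marker list, had a change of -0.74 (adjusted p = 0.102, edgeR). The summed level of the listed neutrophil markers was 3.24 to 6.51 CPM in exposed and 3.92 to 11.2 CPM in control livers. It came mostly from Lcn2 and S100a9 (control medians 2.89 and 3.12 CPM), with S100a8 at 0.181 and Fcnb at 0.0768 CPM. The summed level of the macrophage markers was 35.6 to 53.9 CPM in exposed and 29.3 to 50.1 CPM in control livers. The part of these cells in the falls was not tested.

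The remaining falls had separate roles. Hsp90aa1, the stress-inducible form of the chaperone HSP90, was at 2.44, 2.28, 1.66, 1.46 and 2.01 CPM against 2.51 to 7.92 CPM (median 3.33), a change of -0.93 ± 0.21 (adjusted p = 0.017, edgeR). No exposed liver overlapped a control, although control F8 stood far above its group. It was the only called member of 9 heat shock genes, whose median was -0.34. Dnajb1, a co-chaperone (-0.43), and Hspa8, the constitutive HSP70 (-0.34), were not called. None of 14 genes of the unfolded protein response, 7 clock genes and 6 genes of the glucocorticoid and fasting response was called. The call of Hsp90aa1 was lost without F403 or F404 and in a fit of only the 100 and 0 ppm libraries (adjusted p = 0.1).

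Inhba, the subunit of activin A, was at 18.8, 9.62, 13.2, 14.3 and 14.8 CPM against 16.4 to 26.4 CPM (median 20.7), a change of -0.57 ± 0.15 (adjusted p = 0.0356, edgeR), and was the only called gene of 6 in the activin and TGF-beta list. Paqr9, a membrane receptor of the progestin and adipoQ family that is abundant in liver, was at 371.7, 263.8, 283.01, 275.8 and 326.7 CPM against 343.8 to 821.6 CPM (median 442.3), a change of -0.68 ± 0.17 (adjusted p = 0.0244). F401 was the 1 exposed liver inside the control range of each of these genes. Srsf1, a splicing factor, was at 25.7, 30.5, 26.7, 26.96 and 32.1 CPM against 28.4 to 44.8 CPM (median 36.99), a change of -0.37 ± 0.092 (adjusted p = 0.0244). Ado, a thiol dioxygenase, had 3 to 13 counts in exposed and 11 to 31 in control libraries, a fitted change of -1.36 ± 0.38 (adjusted p = 0.0473). F402 and F405 lay inside the control range of Srsf1 and F401 inside that of Ado. The calls were lost for Inhba without F402, F403, F404, F405 or any of 4 controls (up to 0.137) and for Paqr9 without F402, F403 or F404 (up to 0.0978). They were lost for Srsf1 without F401, F403 or F404 and for Ado without F402, F403, F404, F405 or any of 8 controls (up to 0.165). Srsf1 was also not called in a fit of only the 100 and 0 ppm libraries (adjusted p = 0.107, edgeR).

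The position of 100 ppm in the concentration series was then examined. Below it, no probe was called at 1 ppm (0% of 2019, with 4.31% at an unadjusted p under 0.05) or at 30 ppm (0%, with 8.17%), and only Abcc3 was called at 10 ppm (0.0495%), by edgeR. At 250 ppm 500 probes were called (24.8%) and at 500 ppm 1368 (67.8%). These comparisons share the control rats. In the direct contrast of 100 with 30 ppm, which uses no control, no probe was called (0%, with 7.68% at an unadjusted p under 0.05, and 0 by DESeq2). In the contrast of 250 with 100 ppm 180 probes were called (8.92%), 17 of them among the 43.

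Several conjugation and export genes went on rising. Abcc3 averaged 2.14 ± 0.449 CPM at 0 ppm (SD, n = 10), and over 5 rats each 3.07 ± 0.689 at 1 ppm, 4.59 ± 1.35 at 10, 3.23 ± 1.31 at 30, 4.85 ± 1.09 at 100, 10.6 ± 1.46 at 250 and 16.1 ± 0.944 at 500 ppm. The mean at 30 ppm was below that at 10 ppm, and the difference between 100 and 30 ppm was not called (0.58 ± 0.21, adjusted p = 0.488, edgeR). From 100 to 250 ppm Abcc3 rose by a further 1.12 ± 0.21 (adjusted p = 0.000398, edgeR) and Gstp1 by 2.81 ± 0.35 (adjusted p = 1.02e-06). Gstp1 went from 7.07 ± 1.1004 CPM at 100 ppm to 49.4 ± 20.9 at 250 and 115.4 ± 27.3 at 500 ppm. Below 100 ppm it ran from 2.43 to 10.4 CPM at 10 ppm and from 1.31 to 5.88 CPM at 30 ppm. Both ranges overlapped the 5.36 to 8.33 CPM at 100 ppm. Gsta2 at 10 ppm (90.6 to 147.8 CPM) also overlapped its values at 100 ppm (104.5 to 154.1 CPM). Ephx1 (1.63), Aldh1a1 (1.24), Gsta2 (1.16) and Acaa1a (0.88) were also called in the contrast of 250 with 100 ppm. Gstm2 was not (0.19 ± 0.19, adjusted p = 0.633), nor was Cyp2b2 (0.15 ± 0.71), whose mean was 13.8 ± 9.81 CPM at 100 and 15.3 ± 7.24 CPM at 250 ppm.

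The genes of cell division were higher again at 250 ppm. Spc24 rose by a further 2.20 ± 0.34 (adjusted p = 3.85e-05, edgeR), Kif18b by 1.71, Kntc1 by 1.90, Gas2l3 by 1.43, Anln by 1.27 and Aurka by 1.21, all called. Birc5 (0.56, adjusted p = 0.248) and Ect2 (0.90, adjusted p = 0.325) were not called in that contrast. Of the 32 tested genes of the cell cycle list, 2 had risen at 100 ppm and 28 had at 250 ppm. Of the 26 NRF2 targets, 4 had risen at 100 ppm, 17 at 250 and 25 at 500 ppm. Of all probes 1.49% rose at 100 ppm, 13.5% at 250 and 35% at 500 ppm.

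The genes of metabolism took several courses. Acaa1a went on rising, and Ndufv3 averaged 51.8 ± 5.77 CPM in controls, 65.5 ± 4.14 at 100 ppm, 73.04 ± 2.76 at 250 and 96.9 ± 9.48 at 500 ppm, with no called difference between 100 and 250 ppm (0.16 ± 0.091, adjusted p = 0.321, edgeR). Otc was the 1 rise called lower at 250 than at 100 ppm. It averaged 127.1 ± 10.5 CPM in controls, 170.1 ± 8.17 at 100 ppm, 134.7 ± 11.7 at 250 and 89.1 ± 14.8 at 500 ppm. Its difference between 250 and 100 ppm was -0.34 ± 0.093 (adjusted p = 0.0175), and it was lower than controls at 500 ppm (-0.51 ± 0.082, adjusted p = 9.38e-07). Echs1 was also below controls at 500 ppm (-0.43 ± 0.07, adjusted p = 1.03e-06). Sdha was called at no other concentration, with changes of 0.20 ± 0.15 at 250 and -0.17 ± 0.16 at 500 ppm, and its difference between 250 and 100 ppm was not called (-0.45, adjusted p = 0.11). Slc37a4 was also called at 250 ppm (0.43 ± 0.14) and 500 ppm (0.34 ± 0.14), with no called difference between 250 and 100 ppm.

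Among the falls, Itih1 went further down from 100 to 250 ppm (-0.43 ± 0.085, adjusted p = 0.000935, edgeR) and reached -1.89 ± 0.081 against controls at 500 ppm. Against controls at 500 ppm C3 had a change of -1.43, C4bpb of -1.80, Paqr9 of -2.74 and Inhba of -2.78, all called. Hsp90aa1 took the opposite sign, at 0.86 ± 0.19 (adjusted p = 0.000169), and all 9 tested heat shock genes were called as rises at 500 ppm. Tnf and Pno1 were higher at 250 than at 100 ppm, by 2.59 ± 0.71 (adjusted p = 0.0161) and 1.47 ± 0.46 (adjusted p = 0.0397). With Sdha and Ado, these were the 4 genes of the 43 called at no other concentration from 30 to 500 ppm. In all, 33 of the 43 were called in the same direction at 250 ppm, 35 at 500 ppm and 31 at both. Of all probes 24.8% were called at 250 ppm and 67.8% at 500 ppm, in either direction. These comparisons share the control rats used at 100 ppm, so part of this agreement is built in.

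**Figure D3:**
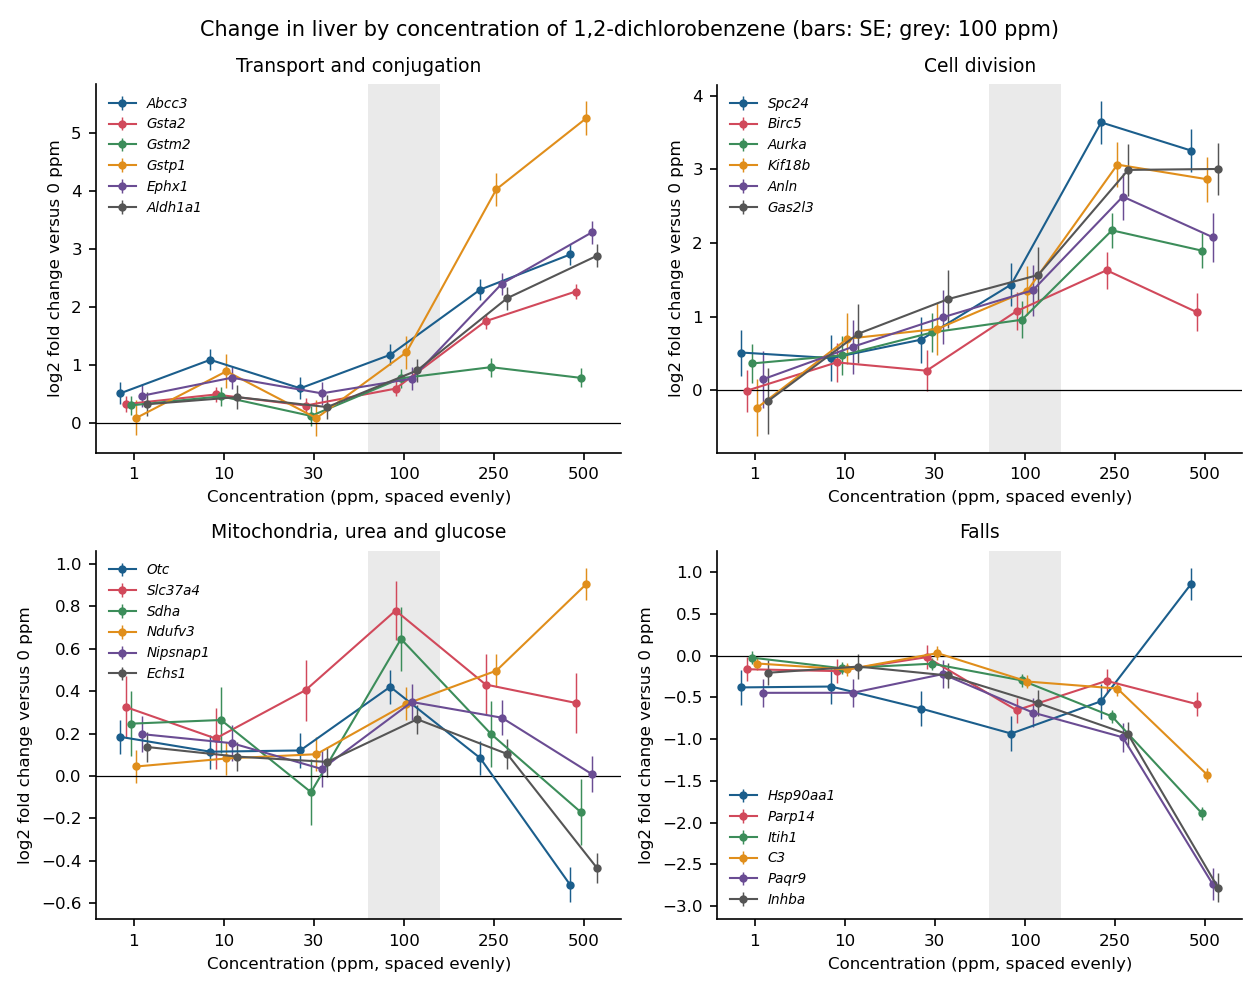
Log2 fold change against 0 ppm with its SE (vertical axis) at each concentration (horizontal axis, evenly spaced) for 24 of the 43 genes in 4 groups put together after the calls were seen, with 100 ppm shaded. Gstp1, Abcc3 and Spc24 are higher at 250 than at 100 ppm, while Otc, Sdha and Echs1 have their highest change at 100 ppm and Hsp90aa1 changes sign at 500 ppm.

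Kidney, which also conjugates and excretes foreign chemicals, was compared in the same rats. No probe was called in kidney at 100 ppm (0% of 2363, with 4.27% at an unadjusted p under 0.05, edgeR), and none in heart (0%, with 5.5%), lung (0%, with 3.17%) or ovary (0%, with 1.96%). The change in liver minus that in kidney was called for 2 of 2401 probes (0.0833%), Abcc3 and Pax8. For Abcc3 kidney of F401 to F405 held 25.5, 17.1, 19.8, 17.4 and 17.5 CPM against 16.1 to 27.7 CPM (median 22.9) in 9 control kidneys, so its kidney change was -0.22 ± 0.14. The difference between the organs was 1.36 ± 0.24 (adjusted p = 0.000438), and 1.36 ± 0.22 with the rat as a block (adjusted p = 0.000541). For Pax8 the difference was 3.47 ± 0.65 (adjusted p = 0.00119), which was lost with the rat as a block (adjusted p = 0.135). With that block 1 difference was called in place of 2. In kidney itself Pax8 had a change of 0.098 ± 0.12. For the other 41 genes no difference between the organs was called, with Aqp7 nearest (1.96 ± 0.46, adjusted p = 0.0532).

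**Figure D4:**
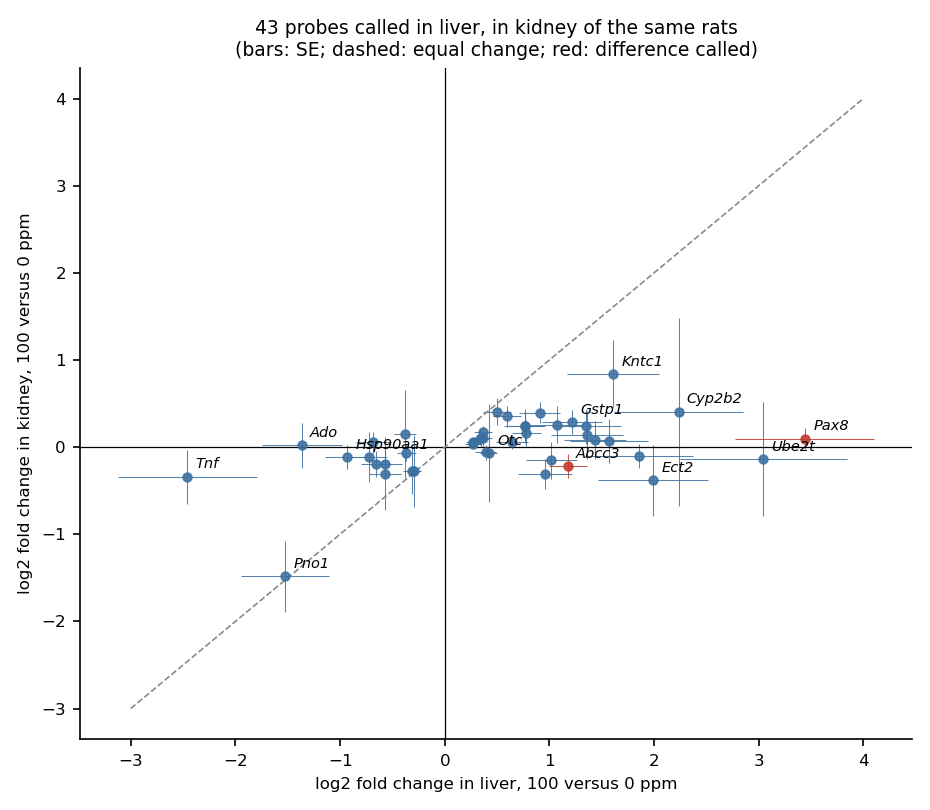
Log2 fold change at 100 against 0 ppm in liver (horizontal axis) and in kidney (vertical axis) for the 43 genes called in liver, with SE bars and a dashed line where both would be equal. Abcc3 and Pax8, in red, are those whose difference between organs was called, and Pno1 lies near the dashed line.

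Pno1, which helps to assemble the small ribosomal subunit, had lower mean levels in the exposed rats in all 5 organs. In liver it was at 3.58, 2.55, 4.41, 3.86 and 2.61 CPM in F401 to F405 against 3.396 to 17.1 CPM (median 9.49), a change of -1.53 ± 0.42 (adjusted p = 0.0455, edgeR). In kidney the same rats held 35.9, 35.1, 29.3, 28.6 and 28.99 CPM against 32.8 to 154.6 CPM (median 85.8), a change of -1.48 ± 0.41 that was not called (adjusted p = 0.416). Its changes were -1.27 ± 0.38 in heart, -1.17 ± 0.33 in lung and -1.68 ± 0.45 in ovary, none of them called, and in liver at 250 and 500 ppm -0.055 ± 0.38 and 0.30 ± 0.38. Over 39 kidneys at all concentrations its level fell into 3 separate ranges, 16 kidneys at 25.8 to 41.5 CPM, 17 at 75.2 to 96.4 and 6 at 128.6 to 156.8. All 5 rats of the 100 ppm group were in the lowest range, as were 2 of 9 control kidneys, those of F3 and F6, 2 of 5 at 250 ppm, 4 of 5 at 500 ppm and 3 of 15 at 1 to 30 ppm. Around the mean of each concentration, its log2 levels in liver and kidney of the same rats had a Pearson correlation of 0.93 over 39 rats. Its median over the 4 other organs was 0.92, and the next highest of the 43 genes was Parp14 at 0.39. Both values of each point come from the same rat, after the mean of its exposure group was subtracted. In liver the call of Pno1 was lost without F401, F402, F403, F404, F405 or any of 7 controls and with limma voom (adjusted p = 0.119).

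**Figure D5:**
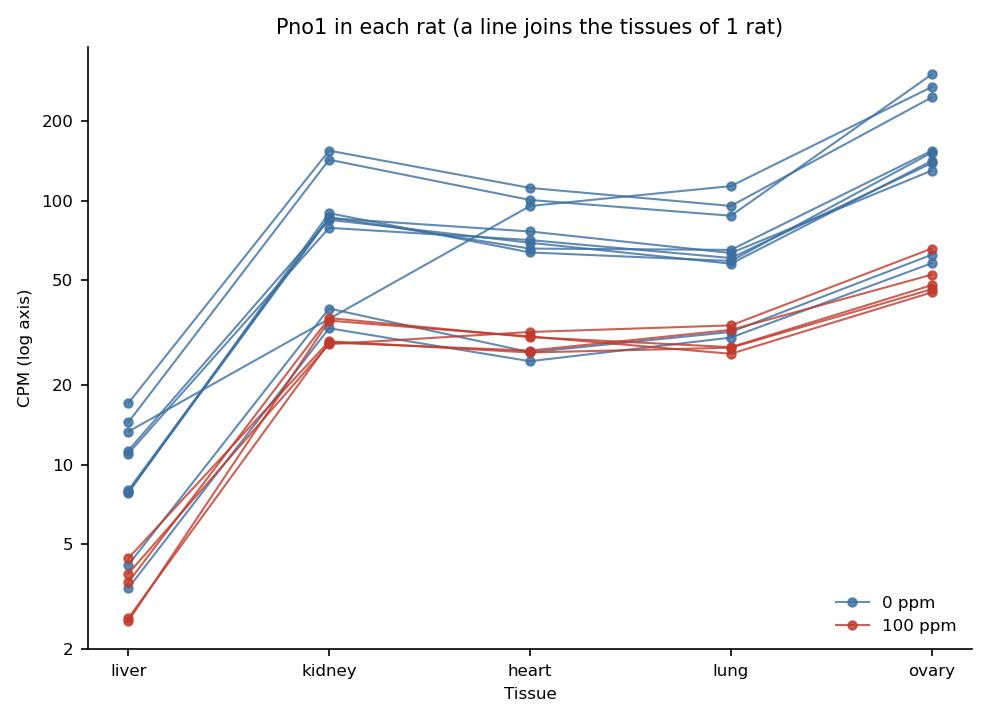
Level of Pno1 (vertical axis, CPM on a log axis) in 5 organs (horizontal axis) of 10 control rats in blue and 5 rats given 100 ppm in red, with a line joining the organs of each rat (1 control rat has no kidney value). The 5 exposed rats lie together at the bottom of every organ beside control rats F3 and F6, and the other 8 control rats lie above them.

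The nearest concentration of 1,4-DCB, whose chlorine atoms sit on opposite carbons, was 150 ppm, given to other rats with controls of their own. Because the concentrations differ, values are set side by side and no difference was tested. No probe was called in liver at 150 ppm of 1,4-DCB (0% of 2019, with 4.8% at an unadjusted p under 0.05, edgeR). Abcc3 had a change of 0.66 ± 0.23 there (adjusted p = 0.791), beside 1.18 ± 0.18 at 100 ppm of 1,2-DCB. Cyp2b2 had 1.80 ± 0.46 (adjusted p = 0.388) beside 2.23 ± 0.61. Gstp1 had -0.02 ± 0.37 beside 1.22 ± 0.29, and Otc 0.066 ± 0.076 beside 0.42 ± 0.079.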

How the data were processed

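Per probe and library, the authors deposited read counts, raw apart from a correction for attenuation, from TempO-Seq on the Rat S1500+ panel of 2654 probes. The submitters' processing notes name Bowtie 1.3.1, without its settings or the probe reference. Probes of abundant transcripts are attenuated and their counts multiplied back, so 115 probes held only multiples of a step above 1, among them the called probes Aldh1a1, C3 and Rpl35. RNA came from tissue in RNAlater, extracted with QIAzol, per the labels' protocols.

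Tests used edgeR 4.0.16 under R 4.3.3 (robust quasi-likelihood, TMM, filterByExpr). All 40 used 1,2-DCB liver libraries at 7 concentrations entered 1 fit, and 2019 probes passed the filter. No libraries were identical. The SE is the log2 change divided by the root of the F statistic, and fitted changes use a prior count of 0.125. The difference between liver and kidney came from a joint fit, with the rat as a block in an alternative. Same-numbered liver and kidney come from the same rat, and over 39 such pairs their deviations from group means had correlations of 0.00176 to 0.17 (median 0.0781). The scripts were tested on simulated data. Gene symbols are those that open the probe names.

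Every called probe could be named. Values by animal were given for the 10 largest rises and 6 largest falls at a mean of at least 20 CPM, for called list members, and for further called probes chosen after their values were seen. Up to 3 list members with the smallest p, and others chosen after their values were seen, stand as values. The members and lists were chosen with earlier results of these data known. Alternatives were DESeq2 1.42.0, limma 3.58.1 voom, 2 other scalings, 2 other filters, a fit of 2 groups only, counts divided by their step, and each rat left out. The reads carry no molecular identifiers, so counting error is a lower limit of the true error. Promoter sequences are RefSeq's, build GRCr8.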

Additional observations from a re-analysis of the deposited data

Results flagged for a closer look

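In 8 of 86 groups of values tested among the called genes (43 genes in exposed and in control livers), 1 animal stood apart by Dixon's criterion. For normally distributed values chance meets it in about 1 of 20 groups. It was applied here to CPM without a log, some from few counts, and the rate for such values was not tested. Each flagged animal was the highest of its group. Among exposed livers F401 was the highest for Ado (0.369 CPM, the next at 0.145), Aurka (1.62 CPM, the next at 0.87) and C3 (14013.5 CPM, the next at 11527.6). F403 was the highest for Abcc3 (6.78 CPM, the next at 4.49) and F404 for Pax8 (0.593 CPM, the next at 0.201). Among control livers F8 was the highest for Hsp90aa1 (7.92 CPM, the next at 4.5), F5 for Paqr9 (821.6 CPM, the next at 584.5) and F6 for Tnf (0.473 CPM, the next at 0.23).

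The change at 100 ppm differed between liver and kidney of the same rats, by edgeR's interaction test, for Abcc3 (1.36 higher in liver on the log2 scale) and for Pax8 (3.47 higher in liver, from at most 28 counts per exposed liver). With the rat as a block the difference was still called for Abcc3 (adjusted p = 0.000541) and not for Pax8 (adjusted p = 0.135).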

How the results depend on the processing

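No called gene changed direction under any alternative. The 43 calls at 100 ppm (30 rises and 13 falls) became 27 with limma voom (all among the 43) and 26 with a filter at a mean of 20 CPM (491 probes tested, 18 shared). In a fit of only the 100 and 0 ppm libraries they became 23 (17 shared). Rises and falls were 19 and 8 with limma voom, 15 and 11 with that filter and 20 and 3 in the fit of 2 groups. They were 9 and 3 without F403 and 15 and 1 without F404. With each rat left out they ran from 12 (without F403, 10 shared) to 52 (without control F4), with 16 without F404 and 26 without control F8. DESeq2 called 54, its size factors in edgeR gave 41, library totals 34, no filter 36 and counts divided by their step 42. For 250 minus 100 ppm the share of probes called, 8.92%, became 20% with the 20 CPM filter (98 of 491, 72 of them called in the main fit). With each rat left out this share ran from 4.65% (without F502) to 9.82%, with 5.84% without F404 and 5.51% without F405. For 100 minus 30 ppm the count of 0 ran from 0 to 2 with each rat left out (2 without F403 and 2 without F302).

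With the rat as a replicate block, 1 difference between liver and kidney was called in place of 2. With each rat left out the count ran from 1 (without F404) to 4 (without control F4 or without F402). The replicate block concerns no other comparison, since each rat gave 1 liver.

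Called list members ran, with each rat left out, from 2 to 4 for NRF2 targets (2 without F403 or F404), from 1 to 3 for CAR and PXR targets (1 without F403), from 2 to 3 for conjugation enzymes, from 0 to 3 for cell cycle genes (0 without F403, 3 without control F4) and from 0 to 2 for the acute phase list (0 without F402, F403 or F404). The cause of these changes was not tested. Leaving out 1 of 5 exposed rats also lowers the number of samples. Probes below 1 CPM rest on few counts.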
